A study of Mus musculus with 6 samples.

Results

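The genes described here encode the secreted WNT ligands, their Frizzled receptors (Fzd) and LRP coreceptors, the secreted antagonists of the Dkk and Sfrp families with Frzb and Wif1, the R-spondins, the Axin scaffolds and the TCF/LEF transcription factors. They were picked by gene name, from the names in the array files, and not by a cut-off on their values. Earlier results of these data were known when the rule was set. The rule found 50 genes on 72 probes, out of 28307 gene names and 41174 probes on the array. Of these, 37 genes on 46 probes passed the filter on dim probes (every array of 1 group or both had to rise well above background), out of 14907 genes and 21187 probes. The other 13 genes are named below as not measured, since no probe of theirs was well above background on every array of either group.

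RNA came from satellite cells, the stem cells of skeletal muscle fibres, of female mice, collected in proliferation. Magic-F1 is an artificial ligand built from parts of hepatocyte growth factor, and the comparison asks how cells of mice homozygous for it differ from control cells. There were 3 Magic-F1 samples (genotype +/+, titled Omo) and 3 control samples (titled MLC3F, a word the labels do not explain), each on 1 single-colour Agilent array. The labels give neither age nor strain, nor the promoter that drives Magic-F1, and they name no separate animals or cultures behind the replicates, so p-values measure only how far these samples differ, a spread that may be technical.

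WNT proteins are lipid-modified signals that bind a Frizzled receptor, and in the canonical branch also Lrp5 or Lrp6. Binding stops the Axin-containing destruction complex from degrading β-catenin, which then acts in the nucleus with TCF/LEF factors. Dkk proteins block the LRP coreceptors, Sfrp proteins and Wif1 bind the ligands, and R-spondins keep Frizzled receptors at the cell surface. In mouse muscle, WNT signals are known to act on satellite cell division, commitment and differentiation, and on the fibroblast-like and fat-forming cells between the fibres.

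Levels below are log2 signals relative to the array's 75th percentile, so that 0 is a spot at that percentile, and a change is the Magic-F1 mean minus the control mean on this scale, which is a ratio of relative signals. A gene with several probes is represented by its brightest tested probe. A gene is called higher or lower where limma's test, adjusted by Benjamini-Hochberg over all 21187 tested probes, gave a p under 0.05. The 75th percentile signal was 341 to 356 on the Magic-F1 arrays and 275 to 292 on the control arrays, between 49.2% and 52.0% of spots were well above background, and 0 spots were saturated. Correlations between arrays were 0.996 to 0.997 within groups and 0.844 to 0.848 between groups, over the tested probes, and the number of arrays limits the precision. Values under a pair of other settings are given where they moved a result, normexp background correction, which adds an offset of 50 to the signals, and scaling of the arrays to their spiked-in RNA.

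More WNT members were lower in Magic-F1 cells than higher. Of the 37 tested genes, 13 were higher (35.1%, against 40.6% of all tested genes), 22 were lower (59.5%, against 47.7% of all tested genes) and 2, Wnt9b and Fzd5, were not called. Their median change was −1.02, where that of all tested genes was −0.15. With normexp background these medians were −0.49 and −0.17, a smaller gap, and with spike-in scaling −0.60 and 0.27. Of the 37 genes, 1 (2.7%), Dkk2, rose and 11 (29.7%) fell at least 4-fold, which 9.87% and 10.7% of all tested genes did, where a gene above background on no array of a group counts at its bound, explained at Wnt3. Fzd3 and Fzd10, well above background on 2 Magic-F1 arrays each, count at their fitted change. After normexp correction Dkk2 (3.14) and, of the 11 falls, only Sfrp2 (−3.53) stayed past 4-fold. The remaining falls then ranged from −1.97 (Fzd9) to −0.84 (Fzd6). The matching share of all tested genes was not counted, so this contrast is shown only without normexp. The groups did not overlap for 34 members (91.9%), against 89.7% of all tested genes, so a lack of overlap was the rule on these arrays and says little about the members. Counted by probe, 14 of 46 were higher (41.3% of all tested probes were) and 27 were lower (46.4% of all tested probes were). Ligands (9 of 12 tested) and receptors (7 of 10 tested) made up most of the falls. Both tested R-spondins, Axin1 and 2 of 3 TCF/LEF factors were higher. These roles hold too few genes to compare with the 40.6% of all tested genes. Rspo1 and Axin1 did not pass under every setting. Tcf7l1, read under an older name and not counted here, was lower (−0.57).

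**Figure D1:**
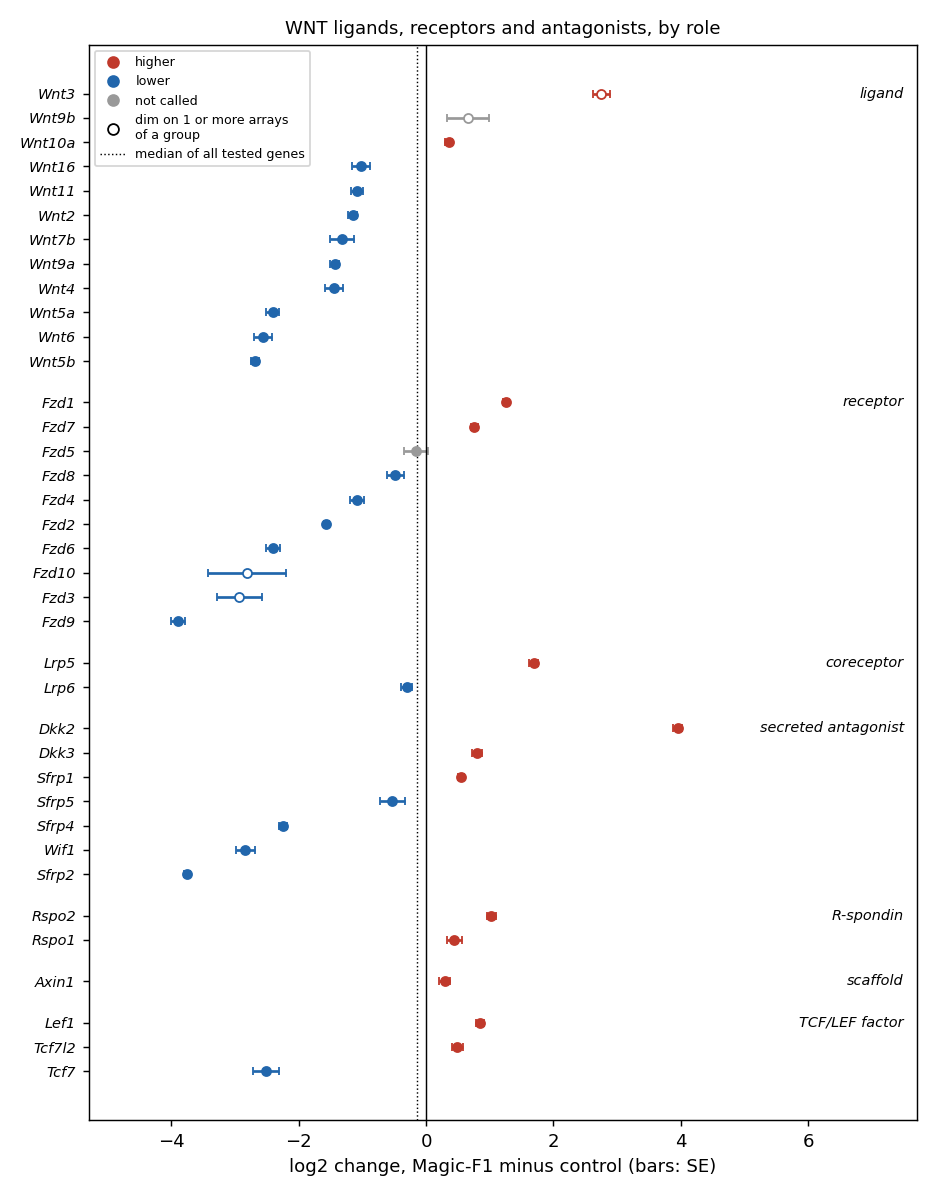
Log2 change, Magic-F1 minus control, of the 37 tested member genes grouped by role (horizontal axis; bars are the SE of the fit from 3 arrays a group; open circles mark probes dim on at least 1 array of a group; the dotted line is the median of all tested genes, −0.15). The 9 called ligands below 0 lie between −1.02 and −2.68, Dkk2 stands highest at 3.95, and Fzd9 lowest at −3.90.

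The samples also differed in markers of other cells. RNA of bulk samples cannot tell fewer cells of a type from less RNA per cell. Linear signals summed over the 9 tested satellite cell and myoblast markers were 40.4 to 42.0 times the 75th percentile on Magic-F1 arrays and 220 to 243 on control arrays, with 2 higher and 7 lower. Sdc4, 1 of the 2 higher, was at 0.97 on its brightest probe but at −2.79 on another. The other higher marker, Cxcr4, was at 4.66 on its brightest probe and at 3.59 on another. Pax7, which defines satellite cells, was well above background on 0 Magic-F1 arrays and on 3 control arrays. Sums over 10 macrophage markers were 1331 to 1399 on Magic-F1 arrays and 412 to 439 on control arrays, with 9 of the 10 higher and 1 lower. The lower one, Lyz2, made up 280 to 306 of that sum on Magic-F1 arrays and 339 to 367 on control arrays. Its brightest probe was at −0.30 and another at 2.97. The other 9 markers summed to 1051 to 1093 on Magic-F1 arrays and 68.8 to 72.9 on control arrays. Sums over 7 adipocyte markers were 724 to 764 on Magic-F1 arrays and 146 to 149 on control arrays, all 7 being higher. Sums over 6 neutrophil markers were 0.15 to 0.16 on Magic-F1 arrays, where 2 of the 6 were well above background on all 3 arrays, and 551 to 593 on control arrays, all 6 being lower. The 8 fibroblast and fibro-adipogenic markers summed to 735 to 750 on Magic-F1 arrays and 1061 to 1090 on control arrays, with 3 higher and 5 lower. Pericyte and smooth muscle markers (6) summed to 283 to 295 on Magic-F1 arrays and 1165 to 1211 on control arrays, with 1 higher and 5 lower. Endothelial markers (7) summed to 16.6 to 18.1 on Magic-F1 arrays, where 3 of the 7 were well above background on all 3 arrays, and 9.0 to 9.4 on control arrays, with 2 higher and 5 lower. Vwf alone made up 16.4 to 17.8 of that sum on Magic-F1 arrays and 1.41 to 1.42 on control arrays, and the other 6 summed to 0.20 to 0.24 on Magic-F1 arrays and 7.57 to 7.95 on control arrays. The part of these cells in the WNT changes was not tested.

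Of 19 ligand genes, 12 were tested (median −1.24, or −0.70 with normexp background and −0.82 with spike-in scaling). Those higher numbered 2 (16.7%, against 40.6% of all tested genes), those lower 9 (75%, against 47.7%), and 1 was not called. The falls covered ligands best known for β-catenin-independent signalling (Wnt5a, Wnt5b, Wnt11) and others usually assigned to the canonical branch (Wnt2, Wnt6), and the largest was that of Wnt5b. Wnt5b, a close relative of Wnt5a, lay at −3.09, −3.07 and −3.05 on the Magic-F1 arrays, against −0.33, −0.32 and −0.51 on the control arrays. The 3 Magic-F1 arrays were nearly level and far below all control arrays (log2 −2.68, SE 0.07, adjusted p = 2.04e-07). Wnt5a, the standard ligand of the polarity and calcium branches, lay at −3.62, −3.24 and −3.40 on the Magic-F1 arrays, against −0.98, −0.97 and −1.08 on the control arrays. It was 5.32-fold lower, without overlap (log2 −2.41, SE 0.10, adjusted p = 1.92e-06).

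Wnt6, which the surface ectoderm makes beside the somites of the embryo, lay at −4.12, −4.23 and −3.75 on the Magic-F1 arrays, against −1.62, −1.35 and −1.44 on the control arrays (log2 −2.57, SE 0.14, adjusted p = 6e-06). Its groups were likewise separate, with a fold of 5.93. Wnt4, a ligand that mouse muscle fibres release onto satellite cells, lay at −2.29, −2.69 and −2.79 on the Magic-F1 arrays, against −1.07, −1.18 and −1.19 on the control arrays (log2 −1.45, SE 0.13, adjusted p = 7.66e-05). Wnt9a, needed for joint formation in the mouse, lay at −1.13, −1.22 and −1.07 on the Magic-F1 arrays, against 0.36, 0.21 and 0.32 on the control arrays (log2 −1.44, SE 0.07, adjusted p = 2.63e-06). They fell 2.72-fold and 2.71-fold, with every Magic-F1 array below every control array. Wnt7b, which acts in lung and kidney development, lay at −4.89, −4.61 and −4.23 on the Magic-F1 arrays, against −3.16, −3.13 and −3.48 on the control arrays (log2 −1.32, SE 0.19, adjusted p = 0.000663). Wnt2, a lung development ligand, lay at −2.93, −2.98 and −2.78 on the Magic-F1 arrays, against −1.75, −1.69 and −1.77 on the control arrays (log2 −1.15, SE 0.07, adjusted p = 7.43e-06). Wnt11, known for cell movements in the embryo, fell by 1.08 (SE 0.09, adjusted p = 5.07e-05), and Wnt16, known for its role in cortical bone, by 1.02 (SE 0.14, adjusted p = 0.000626). The groups of these 4 ligands did not overlap either.

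The higher ligands were Wnt3 and Wnt10a. Wnt3, a ligand needed for gastrulation in the mouse, lay at −4.52, −4.57 and −4.21 on the Magic-F1 arrays, against −7.00, −7.18 and −7.37 on the control arrays. It was well above background on all 3 Magic-F1 arrays and on 0 control arrays, so the change is given as at least 1.44-fold higher (adjusted p = 3.47e-06), with fitted group means of −4.43 in Magic-F1 cells and −7.18 in control cells. The bound sets the Magic-F1 mean against the higher, per control array, of the probe's own signal and the dimmest signal that any probe well above background had on that array. Another Wnt3 probe was well above background on 0 arrays of either group and was not tested, so the rise rests on 1 probe. Wnt10a, known for tooth and hair development, was higher by only 0.35 (SE 0.05, adjusted p = 0.000954), with means of −0.84 ± 0.04 in Magic-F1 cells and −1.20 ± 0.07 in control cells (SD, n = 3 each). Wnt9b, a ligand that induces kidney tubules, lay at −4.66, −4.92 and −4.99 on the Magic-F1 arrays, against −5.37, −6.25 and −4.92 on the control arrays. It was well above background on 3 Magic-F1 arrays and 1 control array, its groups overlapped, and it was not called (log2 0.66, SE 0.33, adjusted p = 0.107). With normexp background the change was 0.09 for Wnt3 and no longer passed (adjusted p = 0.163), and −0.16 for Wnt9b, which then passed as lower (adjusted p = 0.0269). Wnt9b passed as higher with spike-in scaling (1.07, adjusted p = 0.0207) and without control replicate 3 (0.95, adjusted p = 0.0266), so it has no settled direction. Normexp background also shrank the falls of Wnt5b to −1.71, Wnt5a to −1.38, Wnt6 to −1.25 and Wnt7b to −0.55, all of which still passed.

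**Figure D2:**
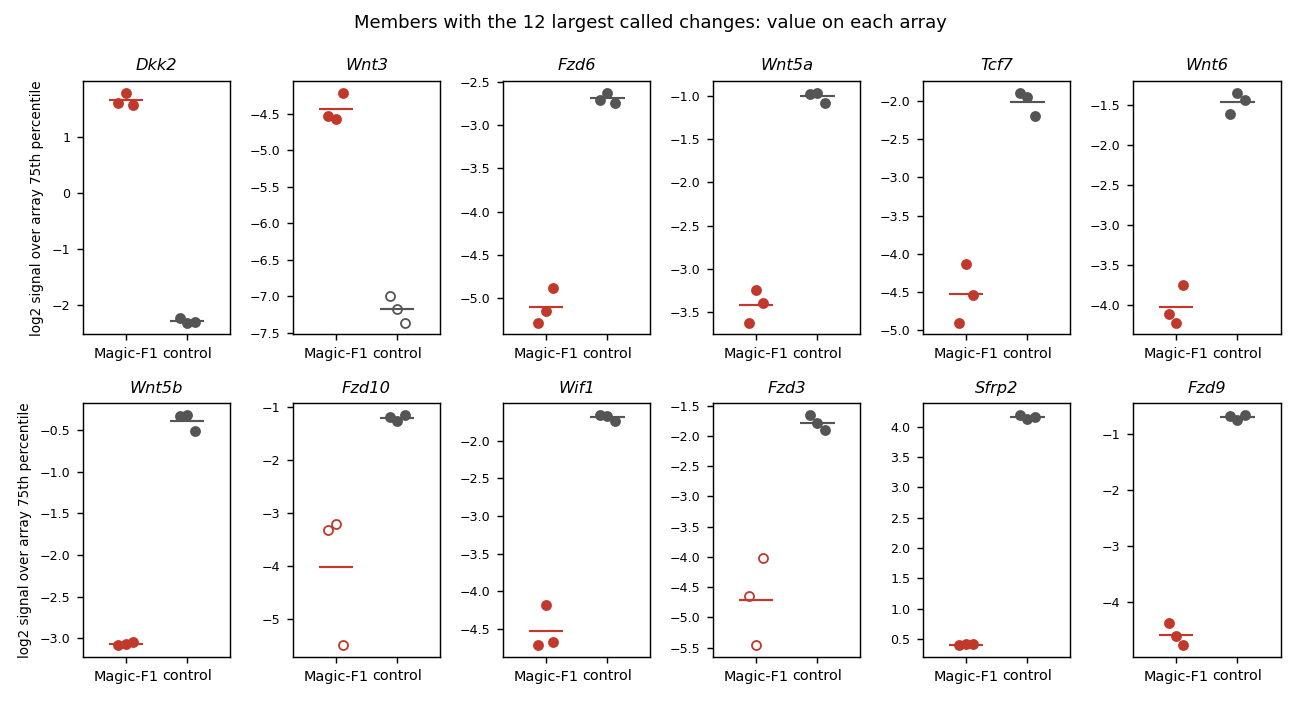
Level on each array (vertical axis: log2 signal over the array's 75th percentile; scales differ between panels) of the 12 members with the largest called changes, with Magic-F1 on the left, control on the right and lines at the group means (n = 3 each). Open circles stand for a group in which the probe was dim on at least 1 array, and no panel shows overlapping groups.

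Several ligand genes lie side by side in the genome, and probe positions in the files (mm9) put them within 200 kb of each other. On chromosome 1 the probes of Wnt6 and Wnt10a are 19.2 kb apart, yet Wnt6 fell (−2.57) and Wnt10a was slightly higher (0.35). On chromosome 11 the probes of Wnt9b and Wnt3 are 88.5 kb apart. Both genes passed the filter through the Magic-F1 arrays alone, which favours a higher level there, so this is no shared trait of the pair. Wnt9b was not called, and with normexp background Wnt3 was at 0.09 and Wnt9b at −0.16. Also on chromosome 11, 82.8 kb separate the probes of Wnt9a, which fell, and Wnt3a, which was not measured. Wnt10b and Wnt1, 21.1 kb apart on chromosome 15, were not measured either. The other ligands not measured were Wnt2b, Wnt7a, Wnt8a and Wnt8b. Wnt1 and Wnt3a were each well above background on 1 Magic-F1 array and 0 control arrays, and the others on 0 arrays of either group.

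All 10 Frizzled genes were tested (median −1.33, or −0.88 with normexp background). Of them, 2 were higher (20%, against 40.6% of all tested genes), 7 lower (70%, against 47.7%) and 1 not called. The largest fall was that of Fzd9, which acts in bone formation in the mouse and lay at −4.37, −4.61 and −4.77 on the Magic-F1 arrays, against −0.67, −0.74 and −0.65 on the control arrays. The groups were far apart, with a fold of 14.9 (log2 −3.90, SE 0.11, adjusted p = 3.11e-07). Fzd10, which belongs with Fzd9 and Fzd4 to a group of related receptors, lay at −3.34, −3.22 and −5.50 on the Magic-F1 arrays, against −1.20, −1.26 and −1.16 on the control arrays. Magic-F1 replicate 3 stood well below the other Magic-F1 arrays and the error was large (log2 −2.81, SE 0.61, adjusted p = 0.005). The probe was well above background on 2 of these 3 arrays. Fzd4, the receptor of Norrin in retinal vessels, fell by 1.09 (SE 0.11, adjusted p = 0.000101).

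Fzd3 and Fzd6, related receptors known for planar cell polarity and axon guidance, fell together. Fzd3 lay at −4.64, −5.46 and −4.02 on the Magic-F1 arrays, against −1.65, −1.79 and −1.90 on the control arrays (log2 −2.93, SE 0.35, adjusted p = 0.000279), and its probe was dim on 1 Magic-F1 array. The Magic-F1 values spread over more than 1 unit and all lay below the control values. Fzd6 lay at −5.29, −5.14 and −4.88 on the Magic-F1 arrays, against −2.71, −2.62 and −2.75 on the control arrays (log2 −2.41, SE 0.11, adjusted p = 2.56e-06), again without overlap. Of the related pair Fzd5 and Fzd8, Fzd8 fell by 0.48 (SE 0.13, adjusted p = 0.0117). Fzd5, known for eye and gut development, had overlapping groups, −3.48 ± 0.13 in Magic-F1 cells and −3.32 ± 0.38 in control cells (SD, n = 3 each), and was not called (log2 −0.16, SE 0.19, adjusted p = 0.466). It passed as lower with normexp background (−0.20, adjusted p = 0.00863) and without control replicate 3 (−0.36, adjusted p = 0.0407).

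The subfamily of Fzd1, Fzd2 and Fzd7 was divided. Fzd2 lay at 2.86, 2.86 and 2.89 on the Magic-F1 arrays, against 4.43, 4.45 and 4.44 on the control arrays. Replicates nearly coincided within a group, and the fall was 2.97-fold (log2 −1.57, SE 0.04, adjusted p = 2.4e-07). Fzd1 lay at 2.59, 2.53 and 2.58 on the Magic-F1 arrays, against 1.29, 1.26 and 1.39 on the control arrays, the opposite direction, also without overlap (log2 1.25, SE 0.05, adjusted p = 1.78e-06). Fzd7, through which WNT7A drives satellite cell expansion in the mouse, was higher by 0.76 (SE 0.05, adjusted p = 1.74e-05), with means of −0.996 ± 0.064 in Magic-F1 cells and −1.76 ± 0.03 in control cells (SD, n = 3 each). With normexp background the falls were −1.97 (Fzd9), −1.38 (Fzd10), −1.15 (Fzd3) and −0.84 (Fzd6), all still past the threshold, while Fzd1 (1.25) and Fzd2 (−1.51) hardly moved. Without Magic-F1 replicate 3, Fzd10 fell by 2.07 rather than 2.81.

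The coreceptors Lrp5 and Lrp6, which can stand in for each other in part, differed. Lrp5 lay at 1.17, 1.11 and 1.35 on the Magic-F1 arrays, against −0.42, −0.50 and −0.52 on the control arrays. It was 3.22-fold higher in Magic-F1 cells, without overlap (log2 1.69, SE 0.08, adjusted p = 2.42e-06). Lrp6 was lower by a small amount (log2 −0.30, SE 0.08, adjusted p = 0.0138), with means of −2.98 ± 0.07 in Magic-F1 cells and −2.68 ± 0.14 in control cells (SD, n = 3 each). Scaling the arrays to their spiked-in RNA raised the median over all tested genes by 0.42, to 0.27, and turned Lrp6 to 0.11 and Fzd5 to 0.26, whereas Lrp5 was then at 2.11. The other called members kept their sign under that scaling, but Fzd8 (−0.06) and Sfrp5 (−0.11) no longer passed.

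The secreted antagonists held both the largest rise and some of the largest falls. Of 10 genes 7 were tested, with 3 higher (42.9%, against 40.6% of all tested genes) and 4 lower (57.1%, against 47.7%). Their median of −0.53 is the value of Sfrp5, and it was −0.33 with normexp background and −0.11 with spike-in scaling. Dkk2, which binds the LRP coreceptors, lay at 1.60, 1.79 and 1.57 on the Magic-F1 arrays, against −2.24, −2.33 and −2.32 on the control arrays. Every Magic-F1 array was far above every control array, and the rise of 15.5-fold was the largest among the tested members (log2 3.95, SE 0.07, adjusted p = 7.61e-08). Sfrp2, a ligand-binding protein known from fibroblasts and regenerating muscle, lay at 0.39, 0.41 and 0.41 on the Magic-F1 arrays, against 4.19, 4.13 and 4.16 on the control arrays. The replicates nearly coincided and the fall was 13.5-fold (log2 −3.75, SE 0.04, adjusted p = 2.46e-08). Wif1, which binds ligands through its WIF domain, lay at −4.72, −4.18 and −4.68 on the Magic-F1 arrays, against −1.65, −1.67 and −1.74 on the control arrays (log2 −2.84, SE 0.15, adjusted p = 4.86e-06). Sfrp4 lay at −1.85, −1.91 and −1.87 on the Magic-F1 arrays, against 0.45, 0.37 and 0.28 on the control arrays (log2 −2.24, SE 0.06, adjusted p = 2.76e-07). Neither overlapped between the groups, and the folds were 7.16 and 4.73.

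Other antagonists moved less. Sfrp1 was higher by 0.54 (SE 0.05, adjusted p = 4.71e-05), with means of 3.85 ± 0.04 in Magic-F1 cells and 3.31 ± 0.03 in control cells (SD, n = 3 each). Dkk3, a divergent Dkk protein, was higher by 0.79 (SE 0.08, adjusted p = 0.000105). Sfrp5 had overlapping groups and just passed (log2 −0.53, SE 0.19, adjusted p = 0.0405), but was at 0.10 in the authors' deposited table of log2 values. Dkk1, Dkk4 and Frzb were not measured, Dkk1 being well above background on 0 Magic-F1 arrays and 2 control arrays. With normexp background Dkk2 was higher by 3.14 and Wif1 fell by 1.17, and both still passed.

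Both tested R-spondins and the 1 tested Axin gene were higher, as were 40.6% of all tested genes, and the TCF/LEF factors were divided. Rspo2, a strong amplifier of WNT signals that acts through Lgr receptors, was higher by 1.03 (SE 0.06, adjusted p = 1.15e-05), with means of −0.97 ± 0.06 in Magic-F1 cells and −1.996 ± 0.087 in control cells (SD, n = 3 each). Rspo1 was higher by 0.45 (SE 0.12, adjusted p = 0.0124), but by 0.05 with normexp background, which did not pass (adjusted p = 0.55). Rspo3 and Rspo4 were not measured. Axin1, a scaffold of the destruction complex, was higher by 0.29 (SE 0.09, adjusted p = 0.0173). It did not pass without Magic-F1 replicate 2 (adjusted p = 0.0519). Axin2, a widely used readout of canonical signalling, was well above background on 0 arrays of either group.

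Among the TCF/LEF factors, Tcf7, known for its part in T cells, lay at −4.90, −4.14 and −4.53 on the Magic-F1 arrays, against −1.89, −1.95 and −2.20 on the control arrays. It was 5.70-fold lower, without overlap (log2 −2.51, SE 0.20, adjusted p = 3.78e-05), and fell by 1.06 with normexp background. Lef1 was higher by 0.85 (SE 0.06, adjusted p = 2.58e-05), or by 0.13 with normexp background (adjusted p = 0.02). Tcf7l2 was higher by 0.49 (SE 0.09, adjusted p = 0.00234). No spot bears the name Tcf7l1. The probe with its RefSeq accession is named Tcf3 in the files, an old name for the gene, and is not counted among the 50 members. It lay at −1.04, −0.98 and −0.99 on the Magic-F1 arrays, against −0.48, −0.50 and −0.33 on the control arrays, and was lower without overlap (log2 −0.57, SE 0.06, adjusted p = 0.000165).

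More than 1 probe was tested for 8 members. In 5 of them, Fzd3, Fzd10, Tcf7, Wnt5b and Wnt9a, all tested probes were called lower. Each of these 5 has at least 1 probe that passed the filter through the control arrays alone, which favours a lower call. Their agreement is therefore not independent support, and the share over all genes with several probes was not counted. In the other 3, Fzd2, Fzd7 and Tcf7l2, some probe was not called, and 0 members had probes called in opposite directions. The first 30 of 60 bases of the probes are shown for 5 of these genes, since the value of a gene rests on which stretch of its transcript a probe reads. Capitals mark the bases at which the upstream probes of Fzd2 and Fzd7 match each other in their best alignment without gaps, and all other bases are in lower case.
Wnt5b, transcript base 965: gtgagaagaactttgccaagggatcggagg
Wnt5b, transcript base 1848: ggaagatgagtgtctgtgaccctggccatt
Fzd3, transcript base 1713: caggttactcagatgagtcgtccagacctg
Fzd3, transcript base 2457: tggggtgtgaacacatccaaaccctaagga
Tcf7, transcript base 1453: ttttgtttgctgtaggtcagatgggttgga
Tcf7, transcript base 2170: ttttttcattctcgctgtagatagcctgaa
Fzd2, transcript base 1868: TcACAGTCTaCATGATCAAaTACCTcATGA
Fzd2, transcript base 3300: cgtgacattctatatcataagatattgata
Fzd7, transcript base 2376: agccccgactTtACAGTCTtCATGATCAAg
Fzd7, transcript base 4201: aagggaaggtgaacttcaaagtgattctgg
Positions are on mm9 as the files give them. The Wnt5b probes lie at chr6:119383012-119383071 and chr6:119390320-119390379, those of Tcf7 at chr11:52066114-52066173 and chr11:52066831-52066890, and those of Fzd3 at chr14:65821343-65821403 and, with its ends far apart, chr14:65831004-65853753. Those of Fzd2 lie at chr11:102467613-102467672 and chr11:102469045-102469104, and those of Fzd7 at chr1:59541367-59541426 and chr1:59543192-59543251. All belong to the named genes per the files, and the files do not say which bases are coding or UTR.

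The second probes of Wnt5b, Fzd3, Tcf7 and Wnt9a were dim on all Magic-F1 arrays, so their falls are bounds, at least 5.96-fold for Wnt5b, 10.4-fold for Fzd3, 5.49-fold for Tcf7 and 2.64-fold for Wnt9a. Fzd10's second probe, well above background on all 6 arrays, lay at −4.12, −4.14 and −4.10 on the Magic-F1 arrays, against −2.58, −2.53 and −3.25 on the control arrays (log2 −1.33, SE 0.20, adjusted p = 0.000795). It was lower without overlap, but by less than the brighter probe (−2.81). Fzd2's second probe lay at −4.84, −5.09 and −4.69 on the Magic-F1 arrays, against −5.86, −5.59 and −4.88 on the control arrays. It was well above background on 1 control array, its groups overlapped, and its change had the opposite sign to that of the brighter probe without being called (log2 0.57, SE 0.26, adjusted p = 0.0811). Fzd7's upstream probe was not called (log2 0.24, SE 0.15, adjusted p = 0.174), where its other probe was higher by 0.76. The upstream probes of Fzd2 and Fzd7 match at 42 of 50 aligned bases, the closest of 1035 pairs of member probes, and whether either probe also reads the other transcript was not tested. Tcf7l2 had 3 tested probes at 0.49, 0.66 and 0.27, of which the last was not called (adjusted p = 0.137).

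**Figure D3:**
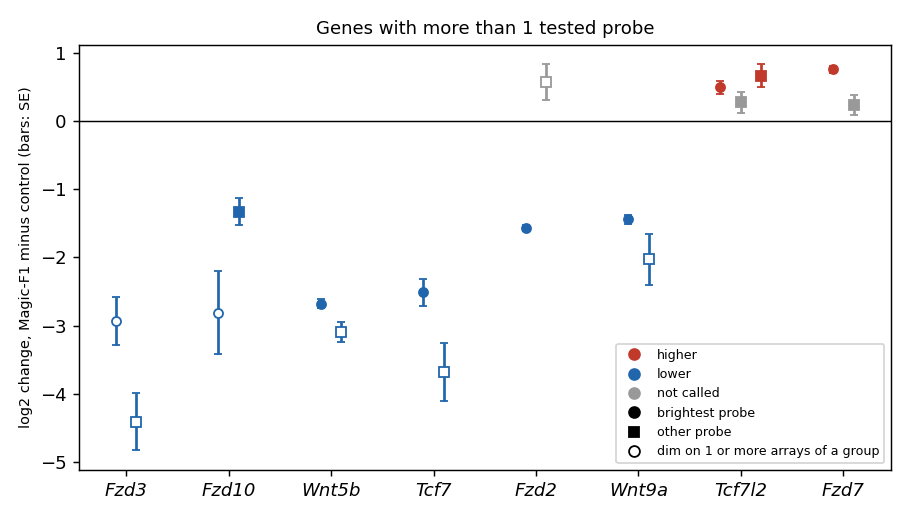
Log2 change, Magic-F1 minus control (vertical axis; bars are SE, n = 3 arrays a group), of each tested probe of the 8 members with more than 1. Circles are the brightest probe and squares the others; the probes of 5 genes all fall, while Fzd2 has 1 probe at −1.57 and a dim one at 0.57.

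Promoters of the members were set beside the changes, as TCF/LEF factors are known to bind DNA with the letters CTTTG followed by a pair of letters that are each A or T. RefSeq promoter windows (GRCm38.p6, 250 bases before to 50 after a gene's start) were found for 33 of the 50 members, in 41 windows. Any of the 4 spellings of this 7-base motif, on either strand, stood in the windows of 7 of 33 members (21.2%), against 18.9% of all 27025 genes in the table, and in 17.1% of member windows against 16.9% of all 32851 windows. Member windows were rich in G and C, with a median of 67.3%, against 52.7% over all windows. The 4 windows shown are those of Dkk2, the member that rose most, of Sfrp2, the antagonist that fell most, and of 1 higher and 1 lower member that hold the motif, which is in capitals.
Dkk2 promoter: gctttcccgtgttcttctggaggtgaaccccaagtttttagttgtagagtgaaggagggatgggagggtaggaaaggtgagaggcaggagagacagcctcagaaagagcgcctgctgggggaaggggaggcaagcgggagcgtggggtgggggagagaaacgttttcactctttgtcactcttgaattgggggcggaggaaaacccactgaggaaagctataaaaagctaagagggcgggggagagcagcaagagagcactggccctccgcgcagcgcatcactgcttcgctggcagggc
Sfrp2 promoter: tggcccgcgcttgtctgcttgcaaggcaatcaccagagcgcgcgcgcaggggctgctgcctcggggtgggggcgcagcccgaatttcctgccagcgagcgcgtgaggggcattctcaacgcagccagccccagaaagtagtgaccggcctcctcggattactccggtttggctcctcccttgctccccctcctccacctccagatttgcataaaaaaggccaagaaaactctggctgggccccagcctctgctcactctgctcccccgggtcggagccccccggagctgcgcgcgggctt
Fzd7 promoter: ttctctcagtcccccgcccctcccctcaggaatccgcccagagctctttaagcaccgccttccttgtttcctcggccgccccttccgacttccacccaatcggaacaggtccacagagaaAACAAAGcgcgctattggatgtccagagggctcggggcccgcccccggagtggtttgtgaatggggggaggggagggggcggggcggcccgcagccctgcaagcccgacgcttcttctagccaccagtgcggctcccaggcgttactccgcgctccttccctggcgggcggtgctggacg
Wnt11 promoter: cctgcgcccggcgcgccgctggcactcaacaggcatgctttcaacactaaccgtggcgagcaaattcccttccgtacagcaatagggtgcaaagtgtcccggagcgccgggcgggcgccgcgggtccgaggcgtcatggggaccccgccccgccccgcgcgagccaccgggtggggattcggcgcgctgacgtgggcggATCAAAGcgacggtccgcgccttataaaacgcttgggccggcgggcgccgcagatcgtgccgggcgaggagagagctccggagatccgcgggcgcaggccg
Dkk2 lies at chr3:132085042-132085341, Sfrp2 at chr3:83766071-83766370, Fzd7 at chr1:59481897-59482196 and this window of Wnt11 at chr7:98834862-98835161, all on the plus strand. In both Fzd7 and Wnt11 the motif is read on the opposite strand. It appears as AACAAAG in the window of Fzd7, and as ATCAAAG in that of Wnt11. Neither Dkk2 nor Sfrp2 holds these letters in its window. The other members with a motif were Lef1, Tcf7l2 and Wnt3, which were higher, Wnt5b, which was lower, and Dkk1, which was not measured. A match is only a description of the letters.

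Genes that make, carry, receive or relay the signal were examined in lists beside the members. Of 92 tested genes in all, 36 were higher (39.1%, against 40.6% of all tested genes) and 48 lower (52.2%, against 47.7%), which is close to the background, but the lists differed in direction. A gene counts by its brightest probe, and another probe of some genes had the opposite sign. Examples are Kremen1 (−0.83 and 1.85), Gpc6 (−1.01 and 0.71), Csnk1d (0.89 and −0.63), Rac1 (1.14 and −0.52) and Vangl1 (0.61 and −1.27). Lgr5, Znrf3 and Notum stand both among the known targets and in another list, so the lists are not independent. With spike-in scaling the 92 genes split into 44 higher and 36 lower, and all tested probes into 10835 higher and 7348 lower, against 8749 higher and 9839 lower with the percentile.

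The lists of ligand processing, other receptors and other inhibitors ran the same way as the ligands and receptors. In that order 90%, 70% and 71.4% were lower, against 47.7% of all tested genes. The shares higher were 10%, 10% and 14.3%, against 40.6%. Of 10 genes for ligand processing and release, 1 was higher and 9 lower (median −0.73, or −0.48 with normexp background and −0.32 with spike-in scaling, under which 4 of the 10 were above 0). Porcn, the enzyme that adds the lipid to WNT proteins, fell by 1.57 (SE 0.08, adjusted p = 3.34e-06), and Gpc3, a cell surface proteoglycan, by 1.57 (SE 0.06, adjusted p = 9.5e-07). Notum, which removes the lipid, was at least 2.09-fold lower (adjusted p = 0.00102). Sulf2, a sulfatase that trims heparan sulfate, was the 1 higher gene, by 2.07 (SE 0.04, adjusted p = 1.2e-07). Of 10 tested other receptors and turnover genes, 1 was higher, 7 lower and 2 not called (median −0.99, or −0.57 with either setting). Kremen2, a Dkk receptor, was at least 5.29-fold lower (adjusted p = 1.3e-07), Musk, the kinase of the neuromuscular junction, fell by 2.54 (SE 0.17), Tspan12, a partner of Fzd4, by 1.67 (SE 0.05), and Lgr6, an R-spondin receptor, by 1.11 (SE 0.23). Among 7 tested other inhibitors, 1 was higher, 5 lower and 1 not called (median −0.86, or −0.49 with normexp background and −0.45 with spike-in scaling). Sostdc1, which binds LRP coreceptors, was at least 10.3-fold lower (adjusted p = 1.62e-05), Shisa2, which holds Frizzled proteins inside the cell, fell by 3.16 (SE 0.07), Dkkl1 by 1.27 (SE 0.16) and Apcdd1 by 0.86 (SE 0.06), with another Apcdd1 probe at −2.21.

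For the destruction complex and the nuclear cofactors the balance was the other way. In that order 63.2% and 78.6% were higher, against 40.6% of all tested genes. The shares lower were 26.3% and 14.3%, against 47.7%. Of 19 tested genes of the destruction complex and its control, 12 were higher, 5 lower and 2 not called (median 0.47, or 0.89 with spike-in scaling). Frat1 and Frat2, which bind and restrain GSK3, were higher by 2.78 (SE 0.09) and 1.56 (SE 0.05). Tnks, a tankyrase that marks Axin for removal, was higher by 1.497 (SE 0.075), and Apc, a core subunit, by 1.47 (SE 0.07), with another Apc probe at 0.19. Ctnnb1, which encodes β-catenin and is named here after its value was seen, was higher by 0.82 (SE 0.08, adjusted p = 9.24e-05). Of 14 tested nuclear cofactors, 11 were higher, 2 lower and 1 not called (median 0.82, or 0.46 with normexp background and 1.24 with spike-in scaling). Ep300, a histone acetyltransferase, was higher by 2.33 (SE 0.12), or by 0.49 with normexp background. The Groucho-type corepressors Tle3 and Tle4 were higher by 1.89 (SE 0.06) and 1.68 (SE 0.07), and Hdac1, a histone deacetylase, fell by 1.68 (SE 0.05).

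Known target and feedback genes were mostly lower (median −1.38). Of 17 tested genes, 4 were higher (23.5%, against 40.6% of all tested genes) and 13 lower (76.5%, against 47.7%). Wisp2 fell by 4.88 (SE 0.09). Bmp4 fell by 4.79 (SE 0.08) and Fst, which encodes the myostatin inhibitor follistatin, fell by 3.56 (SE 0.11). Ccnd1, the cell cycle regulator cyclin D1, was the largest exception and was higher by 2.91 (SE 0.06). These genes also answer to signals other than WNT. Of 18 tested polarity and calcium branch genes, 7 were higher (38.9%), 9 lower (50%) and 2 not called, near the shares of all tested genes. The median of this list, −0.26, became 0.16 with spike-in scaling. Nfatc1, a calcium-regulated transcription factor, was higher by 3.50 (SE 0.05). Scrib fell by 2.04 (SE 0.05), Daam1 by 1.75 (SE 0.09) and Vangl2, a core polarity protein, by 1.63 (SE 0.08), although another probe of Vangl2 stood at 0.22. The changes of the genes named in these lists passed limma's test, with adjusted p of 0.0043 or less. With normexp background they kept their sign, and dimmer ones moved towards 0, such as Musk (−1.04), Bmp4 (−2.94) and Frat1 (1.75).

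**Figure D4:**
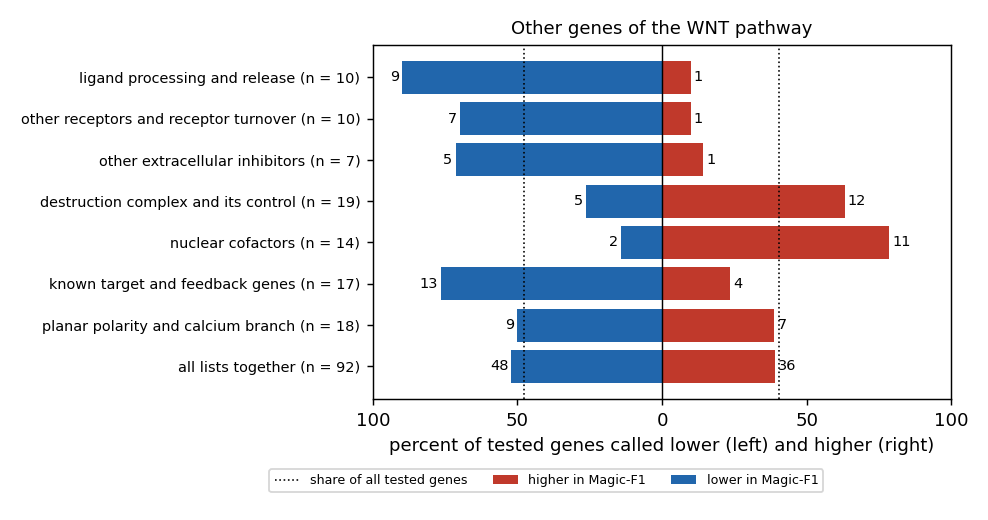
Percent of tested genes called higher (right) and lower (left) in Magic-F1 cells in each list of other WNT pathway genes, with the number of genes at each bar end; dotted lines are the shares of all tested genes (40.6% higher, 47.7% lower). The lists of ligand processing, other receptors, other inhibitors and known targets lie mostly to the left, and the destruction complex and nuclear cofactor lists mostly to the right.

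Replicates 1 and 3 of each group lay on slide 1 and replicate 2 of each on slide 2. On slide 1 alone 32 of the 37 members (86.5%) were called, against 84.2% of all tested genes. On slide 2 all 37 had the same sign as on slide 1, as had 96.2% of all tested genes, so both shares are near the background. Dkk2 was higher by 3.87 on slide 1 and 4.12 on slide 2, and Sfrp2 fell by 3.77 on slide 1 and 3.72 on slide 2. Fzd10 differed more, at −3.24 on slide 1 and −1.95 on slide 2.

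**Figure D5:**
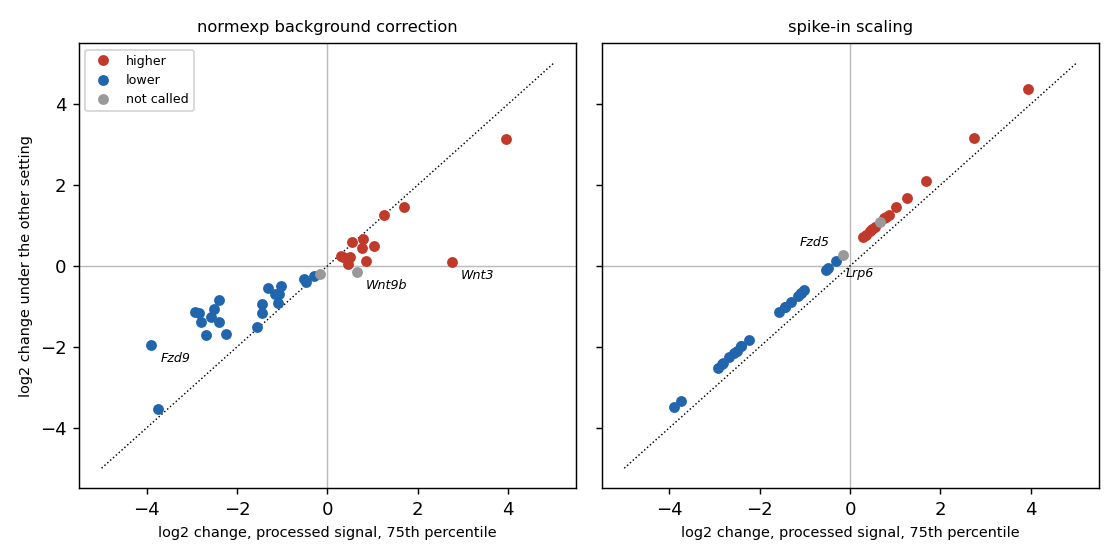
Log2 change, Magic-F1 minus control, of the 37 tested members (1 point each, coloured by the main call) under another background correction (left) and another scaling (right), against the value in the text; the dotted line is equality. Dim genes such as Fzd9 (−3.90, against −1.97 with normexp) move towards 0 on the left, Wnt3, whose change is only a bound, lies near 0 there (0.09), and all members shift up together on the right.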

How the data were processed

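Per the labels' protocols, total RNA of 3 Magic-F1 and 3 control samples was spiked with viral polyadenylated RNA, labelled with Cy3 and hybridised to single-colour Agilent arrays. The scanner software, Agilent Feature Extraction 10.5.1.1 per the file headers, wrote a processed intensity for every spot, which is the signal after background subtraction, with no scaling between arrays. The authors also deposited a table of log2 values, which equals the log2 processed signal on 4 arrays and differs on both arrays numbered 1, for reasons not given in the sources used here. It served as an alternative only.

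From the scanner files, control spots were left out, outlier spots (59 to 89 per array) were set to missing, the 75th percentile of each array was subtracted from its log2 signals, and spots of a probe were averaged. Probes were tested where every array of 1 group or both was well above background, with limma 3.58.1 (lmFit and eBayes, R 4.3.3), without covariates, 2-sided, with Benjamini-Hochberg adjustment over 21187 probes at 0.05. The test was tried on simulated arrays with independent normal noise. Such arrays cannot show its behaviour on dim signals or where replicates are technical. Gene names of members are those of the files. In the counts over all genes, 25097 of 41174 probes were named by RefSeq accession (GRCm38.p6, names only). Every tested member is named, with values on each array for the 20 called members with the largest change and for those well above background in 1 group only, and up to 4 called genes of each pathway list, beside which Ctnnb1 was added after its value was seen. The members, lists and tests were chosen with earlier results of these data known. The slide was checked as a batch, and alternatives covered background correction, scaling, the filter on dim probes, the choice of probe, blocks, the variance model, the deposited table and leaving out each array. Sequences of promoters are RefSeq's and those of probes are from the files.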

Additional observations from a re-analysis of the deposited data

How the results depend on the processing

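The counts of members, member probes and pathway genes called higher and lower stayed within 1.5 times of those in the report under all 17 alternatives that gave them. The median change of the member genes, −1.02, became −0.49 with normexp background, −0.60 with spike-in scaling, −0.45 with no filter on dim probes and −0.53 with the mean of a gene's tested probes. Of the 37 member genes, 29 kept their direction and their side of the threshold under every alternative and 8 did not. Signs turned for Wnt9b with normexp background (−0.16), for Fzd5 and Lrp6 with spike-in scaling (0.26 and 0.11), for Fzd5 when 1 array was left out (range −0.36 to 0.017) and for Sfrp5 in the authors' deposited table (0.10). Spike-in scaling adds the same 0.42 to the change of every member, since it differs from the percentile by a constant on each array. The cause of the other turns was not tested. Calls were gained by Fzd5 with normexp background (−0.20) and without control replicate 3, and by Wnt9b with normexp background (as lower), with spike-in scaling (1.07) and without control replicate 3 (both as higher). Calls were lost for Rspo1 and Wnt3 with normexp background, for Fzd8 and Sfrp5 with median and spike-in scaling, for Axin1 with no filter or without Magic-F1 replicate 2, and for Sfrp5 in several others. Deviations of same-numbered samples correlated at −0.003, 0.108 and 0.069. Magic-F1 replicates 2 and 3 each correlated best with the control of their own number and replicate 1 with control replicate 3, and the labels do not say that numbers mark pairs, so they were not taken as pairs. With a replicate block, 13 members were higher and 22 lower, 15 and 27 member probes, and 37 and 48 pathway genes. Signal near background limits what can be said of the 13 members not measured and of genes dim in 1 group.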
